A study of Mus musculus with 4 samples.

Results

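The suppressor of cytokine signalling (SOCS) genes and the tyrosine phosphatase gene Ptpn2, which act as brakes on cytokine receptor signalling, were followed in isolated mouse islets. The members were Socs1, Socs2, Socs3, Socs4, Socs5, Socs6, Socs7, Cish and Ptpn2. They were chosen by name and not by a rule on measured values, but with earlier results of these data known. All 9 had a row of their own in the deposited expression table, out of 24421 rows. Islets are the clusters of endocrine cells of the pancreas, most of which are insulin-producing beta cells. They came from wild-type C57BL/6 mice and were cultured in RPMI medium with 11 mM glucose. The table holds 2 control libraries, labelled untreated, and 2 libraries of islets that received cytoEV daily for 48 h. From the title of the series, the treatment concerns small extracellular vesicles, particles that cells shed, of pro-inflammatory beta cells. The column names of the control libraries read as control EV, whereas the sample labels say untreated, so what the control islets received is not settled here. The sources used here do not give the age or sex of the mice, the number of mice behind a library or the dose of cytoEV. The labels do not say whether replicates were separate cultures or mice. The p-values therefore speak of the spread among these samples only, which may be technical.

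Cytokine receptors without a kinase of their own carry Janus kinases (JAKs), which phosphorylate STAT transcription factors. Activated STATs switch on their target genes, and among these are Socs1, Socs3, Socs2 and Cish, whose proteins then act back on the receptor and its kinase. Each SOCS protein has an SH2 domain that binds phosphotyrosine and a SOCS box that recruits an elongin and cullin ubiquitin ligase. SOCS1 and SOCS3 also carry a short region that blocks JAK catalytic activity. PTPN2, also called TC-PTP, works by another route and removes phosphate from JAK1, JAK3 and STAT3. In beta cells, SOCS1, SOCS3 and PTPN2 are known for limiting the response to interferon and interleukin signals, and the human PTPN2 locus is associated with type 1 diabetes.

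Socs3 was the member that fell. Its level was about 3 times lower in cytoEV islets, with no overlap between the groups. No member rose. Socs1, the member classically induced by interferon gamma, was close to silent in all 4 libraries. Of 19 listed interferon gamma target genes, 16 were higher in the same cytoEV libraries. Some of these passed the filter on low values through those libraries alone. Ptpn2, Socs7 and Socs5 were lower in both cytoEV libraries than in either control library, but did not pass the threshold. Such a lack of overlap was common, at 53.9% of all tested genes. Socs2, Socs4, Socs6 and Cish did not pass either.

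Levels are given as CPM, the reads of a gene scaled to a library total of 1000000. The libraries held between 129726756 and 156183968 reads, recovered from the deposited values, so 1 CPM stands for more than 100 reads. Differences were tested with limma on log2(CPM + 1) over the 12780 genes that reached 1 CPM in 2 or more libraries, and a gene was called at a Benjamini-Hochberg adjusted p under 0.05. This test covered 8 of the 9 members, and Socs1 lay below the filter. Of the 8, limma called 1 lower and 0 higher, and at an unadjusted p under 0.05 it counted 3 lower and 0 higher. EdgeR on the recovered reads also called 1 lower and 0 higher, and DESeq2 called 3 lower and 0 higher. Over all tested genes, 3.51% were called lower and 3.16% higher by limma. At an unadjusted p under 0.05 limma counted 1440 of the 12780 genes lower and 1537 higher. Over the same genes edgeR called 402 lower and 322 higher, and DESeq2 called 845 lower and 745 higher. A single call among 8 members is 12.5% of them, and with so few members this share was not compared further. The groups did not overlap for 4 of the 8, Socs3, Socs5, Socs7 and Ptpn2, each lower in cytoEV islets. That share of 50% is close to the 53.9% of all tested genes whose groups did not overlap. The median log2 change was −0.13 over the 8 members and 0.0055 over all tested genes. With 2 libraries against 2, the smallest p an exact two-sided permutation test can give for 1 gene is 0.333, so calls depend on limma pooling the spread of many genes.

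**Figure D1:**
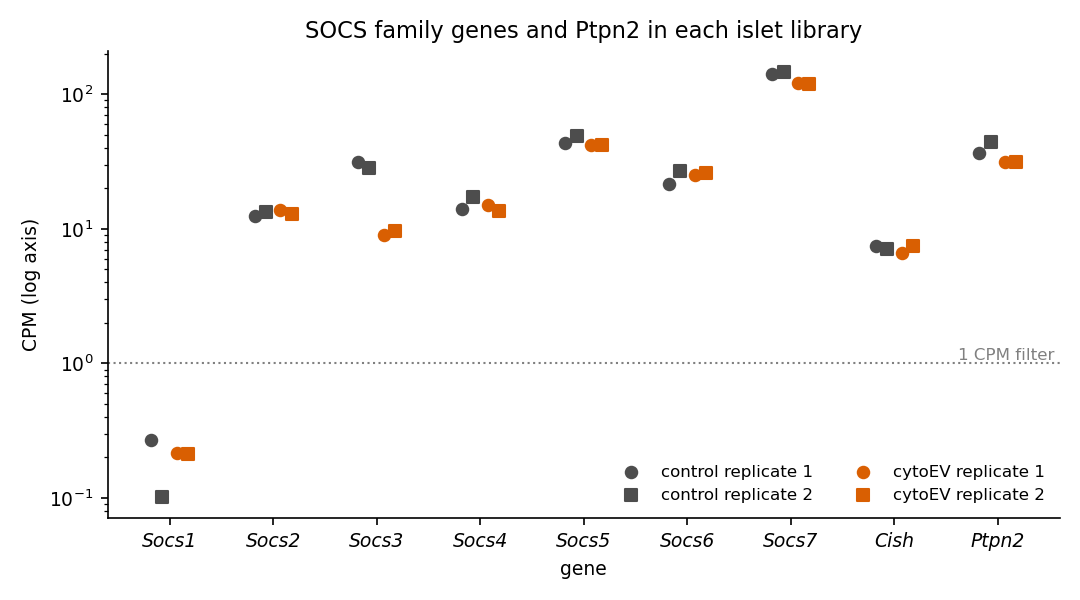
CPM of the 9 genes (log axis) in each of the 4 libraries, grey for control and orange for cytoEV, with circles for replicate 1 and squares for replicate 2. Socs3 drops from 31.1 and 28.3 CPM to 9.05 and 9.68 CPM, while Socs1 lies below the dotted filter line of 1 CPM in every library.

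The promoters of members known as STAT or interferon targets are shown because the data turn on how these genes behaved. They span 250 bases before to 50 bases after the RefSeq gene start on GRCm38.p6, and 4 of the 9 members had such a sequence in the table used (Socs1, Socs3, Socs4 and Cish). Each is written 5′ to 3′ on the strand of the gene. The Socs3 and Cish windows lie wholly inside the gene models of GENCODE, the annotation used below for coordinates and lengths. Capitals mark matches, on either strand, to the STAT motif TTCNNNGAA or to AANNGAAA, the core sequence recognised by interferon regulatory factors (IRFs).
Socs3 (chr11:117969317-117969616, minus strand): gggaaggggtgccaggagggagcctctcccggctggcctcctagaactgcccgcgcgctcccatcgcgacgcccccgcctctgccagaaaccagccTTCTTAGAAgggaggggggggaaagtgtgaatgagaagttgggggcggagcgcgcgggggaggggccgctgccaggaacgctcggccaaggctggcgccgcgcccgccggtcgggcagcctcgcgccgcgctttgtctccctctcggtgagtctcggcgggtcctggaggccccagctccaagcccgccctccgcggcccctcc
Socs1 (chr16:10785487-10785786, minus strand): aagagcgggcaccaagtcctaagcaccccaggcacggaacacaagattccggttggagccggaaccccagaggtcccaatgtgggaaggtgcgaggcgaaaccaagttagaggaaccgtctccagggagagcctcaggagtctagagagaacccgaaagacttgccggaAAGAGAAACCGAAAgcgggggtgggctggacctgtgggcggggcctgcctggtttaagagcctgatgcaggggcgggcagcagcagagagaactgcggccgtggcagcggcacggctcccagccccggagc
Cish (chr9:107296409-107296708, plus strand): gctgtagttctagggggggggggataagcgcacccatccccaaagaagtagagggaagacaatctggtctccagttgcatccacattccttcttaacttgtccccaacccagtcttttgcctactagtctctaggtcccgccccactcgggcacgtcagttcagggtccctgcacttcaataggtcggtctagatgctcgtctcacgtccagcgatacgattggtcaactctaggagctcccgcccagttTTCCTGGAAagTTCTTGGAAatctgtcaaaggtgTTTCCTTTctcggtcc
The Socs3 window holds 1 match to the STAT motif, from −154 to −146 with the gene start as 0. The Cish window holds 2, at 0 to 8 and at 11 to 19, and 1 match to AANNGAAA on the opposite strand, at 34 to 41. The Socs1 window holds no match to the STAT motif and 2 overlapping matches to AANNGAAA, at −81 to −74 and −75 to −68. The Socs4 window, not printed, holds neither. Of 32851 promoter windows of the same length, 8.3% hold the STAT motif, 0.46% hold it at 2 or more places, and 23.92% hold AANNGAAA. A match describes these letters only.

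Socs3, whose protein binds the gp130 receptor chain used by interleukin 6 and related cytokines, is encoded on the minus strand of chromosome 11 (GRCm38, 117966079 to 117970047). It had 31.1 and 28.3 CPM in control replicates 1 and 2, and 9.05 and 9.68 CPM in cytoEV replicates 1 and 2. Both cytoEV libraries were far below both control libraries, and the replicates of a group lay close together. The means were 29.7 ± 1.97 and 9.37 ± 0.444 CPM (SD, n = 2 each), a 3.17-fold lower level in cytoEV islets. The log2 change was −1.57 ± 0.11 (SE), with a 95% interval from −1.81 to −1.32 and a limma adjusted p of 6.62e-05. Among the 12780 tested genes it was the 26th from the bottom by log2 change. Behind these values were 4036 and 4424 reads (control) and 1249 and 1318 reads (cytoEV), and none of the gene's 50-base stretches occurs in transcripts of another gene.

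The summed levels of markers of several non-endocrine cells were also lower in the cytoEV libraries. The summed level of 10 acinar markers, 1 of them at 0 in every library, was 29.3 to 31.9 CPM in control and 14.1 to 16.4 CPM in cytoEV islets, and 3 of 4 tested were lower. These 3, Ctrb1, Prss2 and Cpa1, were below 1 CPM in both cytoEV libraries, so they passed the filter through the control libraries alone. DESeq2 did not call Cpa1 (adjusted p = 0.0690). For 10 endothelial markers the sums were 63.2 to 64.4 and 48.2 to 51.0 CPM, with 3 of 10 lower, and for 9 stellate and fibroblast markers 287.0 to 337.7 and 234.4 to 256.4 CPM, with 3 of 9 lower. With no filter none of these 6 endothelial, stellate and fibroblast calls held (adjusted p in limma from 0.0541 for Flt1 to 0.120 for Cdh5), and those of Pecam1, Cdh5 and Col3a1 were also lost without either cytoEV library. EdgeR did not call Cdh5 either (adjusted p = 0.0515). The sum of 14 macrophage markers was 350.6 to 356.0 CPM in control and 353.1 to 364.7 CPM in cytoEV islets, with 1 higher and 1 lower, both lost with no filter. Its largest part, Lyz2, went from 156.0 and 175.3 to 142.1 and 142.1 CPM, while C1qa went from 51.0 and 39.7 to 59.5 and 63.4 CPM. At an unadjusted p under 0.05 limma counted 4 of these markers higher and 3 lower, and DESeq2 called 3 higher and 1 lower. Of the 13 lymphocyte markers measured, 8 were at 0 in every library, the T cell marker Cd3e among them, and the sum over the others was 4.41 to 4.79 and 6.65 to 7.26 CPM. The 12 endocrine markers had 1 call, the glucose transporter gene Slc2a2, which was higher. The part of these cells in the lower Socs3 level was not tested. In bulk RNA of whole islets, fewer cells of a type and less RNA per cell cannot be told apart.

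The 3 tested genes whose profile over the 4 libraries was most like that of Socs3 were Tnn, Ldha and Pfkfb3. Likeness was the Euclidean distance between mean-centred log2(CPM + 1) values, which came to 0.0628, 0.129 and 0.143. Tnn encodes tenascin N, an extracellular matrix glycoprotein, and had 25.8 and 24.7 CPM in control islets and 7.85 and 8.09 CPM in cytoEV islets. Ldha encodes a lactate dehydrogenase subunit, with 47.2 and 47.1 CPM against 14.7 and 14.6 CPM. Pfkfb3 encodes an enzyme that makes the glycolytic activator fructose 2,6-bisphosphate, with 71.0 and 70.6 CPM against 20.4 and 23.9 CPM. With 4 libraries in 2 groups, such a list mostly gathers genes with a fall of the same size.

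Socs1 (chromosome 16, 10782240 to 10785536, minus strand) encodes a potent JAK inhibitor. Its counts were 35 and 16 reads in control replicates 1 and 2, and 30 and 29 reads in cytoEV replicates 1 and 2. In CPM these are 0.270 and 0.102 in control replicates 1 and 2, and 0.217 and 0.213 in cytoEV replicates 1 and 2. Both cytoEV libraries lay between the control libraries, so the groups overlapped. The level was above the limit that a count of 0 allows, which at 3 reads is 0.0192 to 0.0231 CPM. Summed over the libraries of a group, 59 reads against 51 give a rate 1.21 times that of control, with an exact 95% interval of 0.815 to 1.79 that covers counting error only. A smaller change was not detectable at this depth, and the control libraries themselves differed more than the groups did. With no filter on low values limma gave Socs1 a log2 change of 0.039 ± 0.076 (SE, adjusted p = 0.837), and edgeR with no filter, a setting chosen after seeing the data, gave 0.20 (adjusted p = 0.916).

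Most of the listed genes that interferon gamma is known to induce stood in contrast to Socs1 in the same libraries. Of 19 listed, 17 were tested, 16 were higher and 1 did not pass, and their median log2 change was 2.25. Iigp1, Cxcl9 and Cxcl10 were below 1 CPM in both control libraries, so they passed the filter through the cytoEV libraries alone. Cxcl10, a chemokine gene that was also below 1 CPM in control islets, at 0.416 and 0.211 CPM against 0.270 and 0.102 CPM for Socs1, had 31.8 and 28.9 CPM in cytoEV islets. Irf1, an interferon-induced transcription factor gene, had means of 66.5 ± 4.80 and 117.6 ± 0.459 CPM (SD, n = 2 each) in control and cytoEV islets, a 1.77-fold rise (adjusted p in limma = 0.00114). The ratio of Irf1 lies just inside the upper counting limit of the Socs1 ratio, and that of Cxcl10, 96.8-fold, lies far outside it. The difference between these genes was not tested, since Socs1 was below the filter. The direction of the target list and these rises were already known from earlier results on these libraries, and the list is given as context for the members.

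Ptpn2 (chromosome 18, 67665511 to 67724595, minus strand) was at 36.9 and 44.1 CPM in control replicates 1 and 2 and at 31.6 and 31.2 CPM in cytoEV replicates 1 and 2. The groups did not overlap, but the control libraries differed from each other by more than control replicate 1 differed from the cytoEV libraries. The means of 40.5 ± 5.11 and 31.4 ± 0.286 CPM (SD, n = 2 each) gave a log2 change of −0.35 ± 0.11 (SE, 95% interval −0.60 to −0.098, unadjusted p = 0.0123 in limma). The limma adjusted p was 0.0996, so Ptpn2 was not called. It passed, in the lower direction, in DESeq2 (adjusted p = 0.0163), and in limma without control replicate 1 (0.00105) or without control replicate 2 (0.0424). Its log2 change was −0.48 without control replicate 1 and −0.22 without control replicate 2. When a control library is left out, the cytoEV pair alone sets the spread, and that pair was tight.

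Socs7, whose protein binds insulin receptor substrates among other partners, had the highest level of the 9 genes. It is on the plus strand of chromosome 11 (97362551 to 97398542). Its values were 140.6 and 146.3 CPM in control islets and 120.6 and 118.6 CPM in cytoEV islets, again with no overlap. The log2 change was −0.26 ± 0.082 (SE, 95% interval −0.45 to −0.074), and the limma adjusted p was 0.0982. As with Ptpn2, it passed in DESeq2 (adjusted p = 0.0339) and in limma without control replicate 1 (0.00582) or without control replicate 2 (0.0119). The 95% intervals of Ptpn2 and Socs7 lie wholly above that of Socs3.

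Socs5 and Socs4, whose proteins are known for restraining epidermal growth factor receptor signalling, were the next in order. Socs5 had 43.8 and 49.1 CPM in control and 41.7 and 41.6 CPM in cytoEV islets. Its groups did not overlap, yet control replicate 1 was nearly level with the cytoEV libraries. The log2 change was −0.15 ± 0.098 (SE, adjusted p in limma = 0.403), and it passed without control replicate 1 (−0.23, adjusted p = 0.0431). Socs4 had 13.9 and 17.3 CPM in control and 15.0 and 13.6 CPM in cytoEV islets, with overlapping groups. Its log2 change was −0.12 ± 0.13 (SE, adjusted p in limma = 0.632) and turned to 0.029 without control replicate 2.

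Socs6, which like Socs7 has been tied to insulin receptor signalling, had 21.6 and 26.8 CPM in control and 25.1 and 26.1 CPM in cytoEV islets. Both cytoEV values lay between the control values. The log2 change was 0.084 ± 0.12 (SE, adjusted p in limma = 0.731) and turned to −0.066 without control replicate 1. Of the 50-base stretches of Socs6, 6.14% occur in other gene models, the largest share among the 9 genes, followed by 4.53% for Socs2.

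Socs2 and Cish act on growth hormone and prolactin signalling, which drives beta cell growth in pregnancy, and both are textbook STAT5 targets. Socs2 had 12.4 and 13.3 CPM in control and 13.8 and 13.0 CPM in cytoEV islets. Cish had 7.45 and 7.06 CPM in control and 6.62 and 7.49 CPM in cytoEV islets. The groups overlapped for both genes. The log2 changes were 0.058 ± 0.11 for Socs2 and −0.036 ± 0.12 for Cish (SE, adjusted p in limma = 0.797 and 0.892). Their 95% intervals, −0.19 to 0.31 and −0.31 to 0.24, exclude a rise or fall of the size seen for Socs3. The change of Cish turned to 0.042 without cytoEV replicate 1. Cish overlaps 2 opposite-strand gene models that have no row in the table (Gm17040 and Gm17041, sharing 261 and 479 exon bases), and the strand setting of the counting is unstated in the sources used here.

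**Figure D2:**
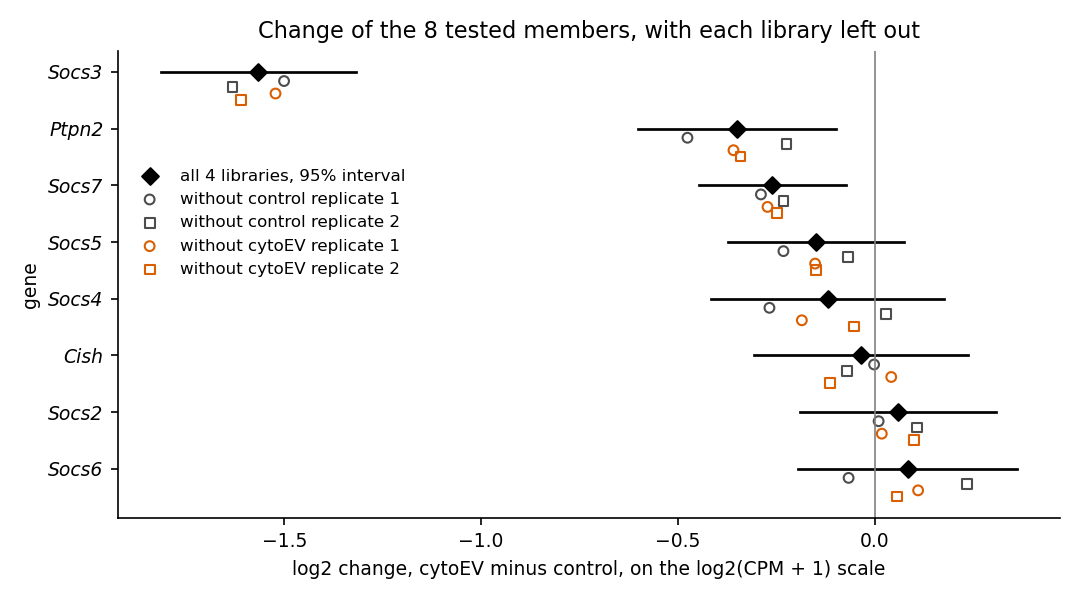
Log2 change of the 8 tested genes on the log2(CPM + 1) scale (black diamonds, cytoEV minus control) with 95% intervals from limma, and the same change with each library left out (open symbols). Socs3 stands at −1.57 and keeps to between −1.63 and −1.50 when a library is left out, while the changes of Socs4, Socs6 and Cish cross 0.

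Set per kilobase of exon, so that genes of different length can be compared, the order in control islets ran from Socs7 at 19.7 ± 0.557 and Ptpn2 at 12.9 ± 1.63 to Socs3 at 10.3 ± 0.681 CPM per kb (SD, n = 2). Socs5 followed at 7.24 ± 0.593, then Socs4 at 2.27 ± 0.350, Socs6 at 2.13 ± 0.326, Socs2 at 1.35 ± 0.0689, Cish at 1.13 ± 0.0430 and Socs1 at 0.0640 ± 0.0407 CPM per kb. The libraries of each gene and the next lower one did not overlap, except for Socs4 and Socs6. In cytoEV islets Socs3, at 3.24 ± 0.154 CPM per kb, was below Socs5 at 6.50 ± 0.00863. Socs6 and Socs4 also changed places, at 2.25 ± 0.0608 and 2.07 ± 0.143 CPM per kb, and no neighbours overlapped. Socs7, Ptpn2, Socs2, Cish and Socs1 held the same places in both groups.

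**Figure D3:**
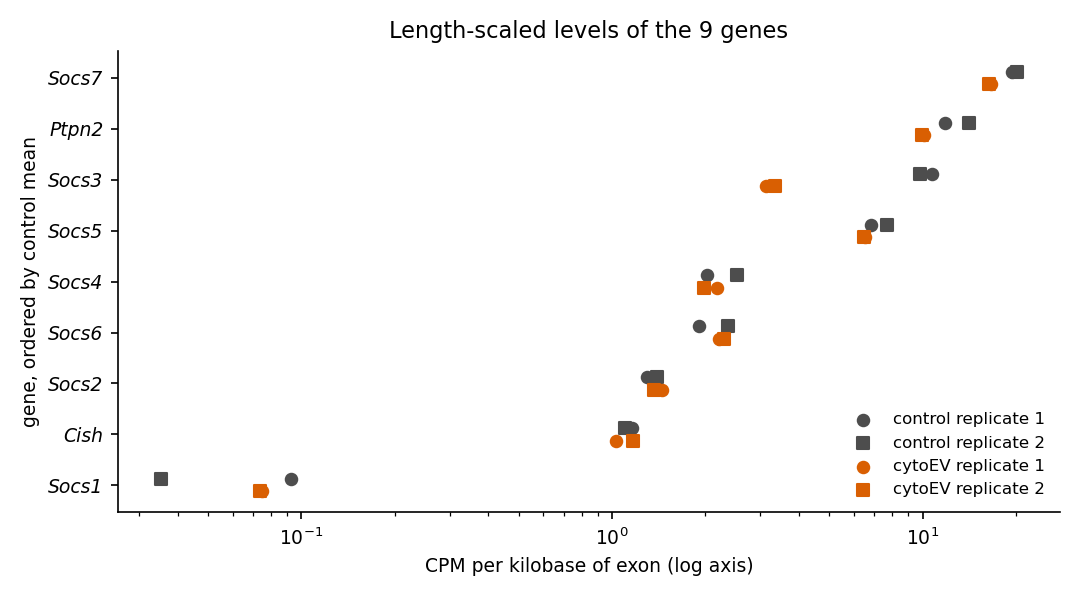
Level of each gene in CPM per kilobase of exon (log axis) in the 4 libraries, ordered by the control mean. Socs3 moves from 10.3 CPM per kb in control islets to 3.24 in cytoEV islets, below Socs5, and Socs1 stays under 0.1 CPM per kb in every library.

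The kinases and STATs that these genes act on moved in different directions. Stat3, which SOCS3 restrains and which is an inducer of Socs3, fell from 355.2 ± 6.91 to 233.5 ± 3.02 CPM (SD, n = 2 each), by 0.60 ± 0.078 on the log2 scale (SE, adjusted p in limma = 0.00274). Leaving out cytoEV replicate 1 (adjusted p = 0.0772) or 2 (0.0513) ended that call. Stat2 was higher by 0.47 ± 0.090 (SE, adjusted p in limma = 0.0181), also lost without either cytoEV library (0.195 and 0.387) and with no filter (0.0606). Stat5a, Stat5b and Stat6 had log2 changes of 0.26, 0.27 and −0.021 and did not pass (adjusted p in limma = 0.223, 0.130 and 0.915). Stat5a passed without control replicate 1 (0.0190) and Stat5b without control replicate 1 (0.00236) or 2 (0.0466). Stat4 was below the filter.

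Of the 4 Janus kinase genes, Jak3 was lower, at 11.2 and 7.86 CPM in control and 4.57 and 4.86 CPM in cytoEV islets. Its log2 change was −0.86 ± 0.16 (SE, adjusted p in limma = 0.0155, and 0.115 with no filter). Jak1, Jak2 and Tyk2 had log2 changes of 0.10, 0.11 and 0.20 and did not pass (adjusted p in limma = 0.560, 0.572 and 0.289), although Jak1 and Jak2 passed upward without control replicate 2 (0.0167 and 0.0183). Among 12 tested interferon and gp130 family receptor genes 1 was higher and 0 lower. It was Ifngr2, a chain of the interferon gamma receptor, with a log2 change of 0.51 ± 0.12 (SE, adjusted p in limma = 0.0347). That call was lost with no filter (0.117) and without either cytoEV library (0.392 and 0.165). Il6st, which encodes gp130, was level at 130.3 ± 9.22 and 129.8 ± 0.895 CPM (SD, n = 2 each). Of 10 tested receptor genes of the growth hormone, prolactin and common gamma chain group, limma, edgeR and DESeq2 called 0. At an unadjusted p under 0.05 limma counted 3 higher and 3 lower. The smallest p was that of Il7r and the next that of Il4ra, with log2 changes of −0.44 and −0.38 (adjusted p in limma = 0.0930 and 0.132). Il7r passed without control replicate 1 (0.0190) and Il4ra without control replicate 2 (0.00303).

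Genes listed here as STAT3 or acute-phase targets were split, with 5 of 12 tested lower, 2 higher and a median log2 change of −0.37. The immediate early gene Fos fell by 2.21 ± 0.12 and Cebpd, a C/EBP transcription factor gene, by 1.33 ± 0.14 on the log2 scale (SE, adjusted p in limma = 1.58e-05 and 0.000764). Bcl3 and Fgb fell by 0.82 each (adjusted p in limma = 0.00724 and 0.00860), calls that were lost with no filter (0.0759 and 0.0795). Junb, the other one lower, is named outside the rule, with a log2 change of −1.37. The higher genes were Lcn2, by 0.74, and Tnfaip3, by 0.46 (adjusted p in limma = 0.0180 and 0.0429). Lcn2 was below 1 CPM in both control libraries and passed the filter through the cytoEV libraries alone. Lcn2 lost its call with no filter (0.0641), and Tnfaip3 without either cytoEV library (0.411 and 0.378), with no filter (0.116), in edgeR (0.0559) and with median centring, TMM or quantile scaling (0.0550, 0.0529 and 0.0533). Fos and Junb also respond to many other stimuli. Of 16 tested STAT5 and lactogen targets, 1 was higher, 2 were lower and the median was 0.072. The kinase gene Pim2 had a log2 change of 0.56, Wipi1 −0.84 and Bcl6 −0.52 (adjusted p in limma = 0.00765, 0.000917 and 0.0300). Pim2 and Bcl6 lost their calls without cytoEV replicate 1 (0.133 and 0.293) or 2 (0.121 and 0.209), and Bcl6 with no filter (0.106).

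Among other genes listed here as brakes on the pathway, most did not pass. Of 14 tested, 2 were higher, 1 lower, and the median log2 change was 0.058. Over all tested genes limma called 3.16% higher and 3.51% lower. Isg15, a ubiquitin-like modifier, was below 1 CPM in both control libraries and passed the filter through the cytoEV libraries alone. Usp18 removes this modifier from proteins and blocks the type I interferon receptor. Isg15 and Usp18 are themselves interferon-induced. They rose by 1.50 ± 0.13 and 0.64 ± 0.099 (SE, adjusted p in limma = 0.000292 and 0.00667), the latter lost without cytoEV replicate 1 (0.0545) or 2 (0.0892). The phosphatase gene Dusp3 was lower by 0.37 (adjusted p in limma = 0.0463), a call that did not hold without cytoEV replicate 1 (0.419) or 2 (0.633), with no filter (0.0965), with a filter of 5 CPM (0.0552) or without the intensity trend (0.0726). Among 11 other tested genes of the PTPN phosphatase group, 1 was lower and 0 higher, with a median of 0.013. It was Ptpn13, lower by 0.43 (adjusted p in limma = 0.0278), lost without cytoEV replicate 1 (0.555) or 2 (0.249) and with no filter (0.0752). Ptpn1, the closest relative of Ptpn2, had 80.3 and 69.7 CPM in control and 64.0 and 68.0 CPM in cytoEV islets (log2 change −0.18, limma adjusted p = 0.327).

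The ubiquitin ligase machinery that SOCS proteins recruit was measured next to them. Of 9 tested elongin and cullin ligase genes limma, edgeR and DESeq2 called 0, and limma had 1 lower at an unadjusted p under 0.05. Of 19 tested genes of other SOCS box proteins limma and edgeR called 0 and DESeq2 called 3 higher and 3 lower, which is also what limma had at an unadjusted p under 0.05. The median log2 changes of the lists were 0.0023 and 0.0066. The smallest p in these lists belonged to Arih2 and Asb7, with log2 changes of −0.20 and 0.42 (adjusted p in limma = 0.212 and 0.0599). Asb7 passed without control replicate 1 (0.0123) or 2 (0.00620) in DESeq2 (0.00783) and with robust eBayes (0.0498), and Arih2 without control replicate 1 (0.0410). Of 15 tested insulin, IGF and growth factor receptor pathway genes that SOCS proteins or PTPN2 act on, 2 were lower and 0 higher. Irs2, an insulin receptor substrate gene, went from 41.3 and 29.9 CPM to 15.4 and 16.4 CPM, and Igf1r, the IGF-1 receptor gene, from 197.5 and 203.2 CPM to 153.8 and 154.1 CPM. Their log2 changes were −1.10 ± 0.15 and −0.38 ± 0.079 (SE, adjusted p in limma = 0.00352 and 0.0273). The Irs2 call was lost with no filter (0.0645), and that of Igf1r with no filter (0.0661), without the trend (0.0589) and without cytoEV replicate 1 (0.541) or 2 (0.468).

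**Figure D4:**
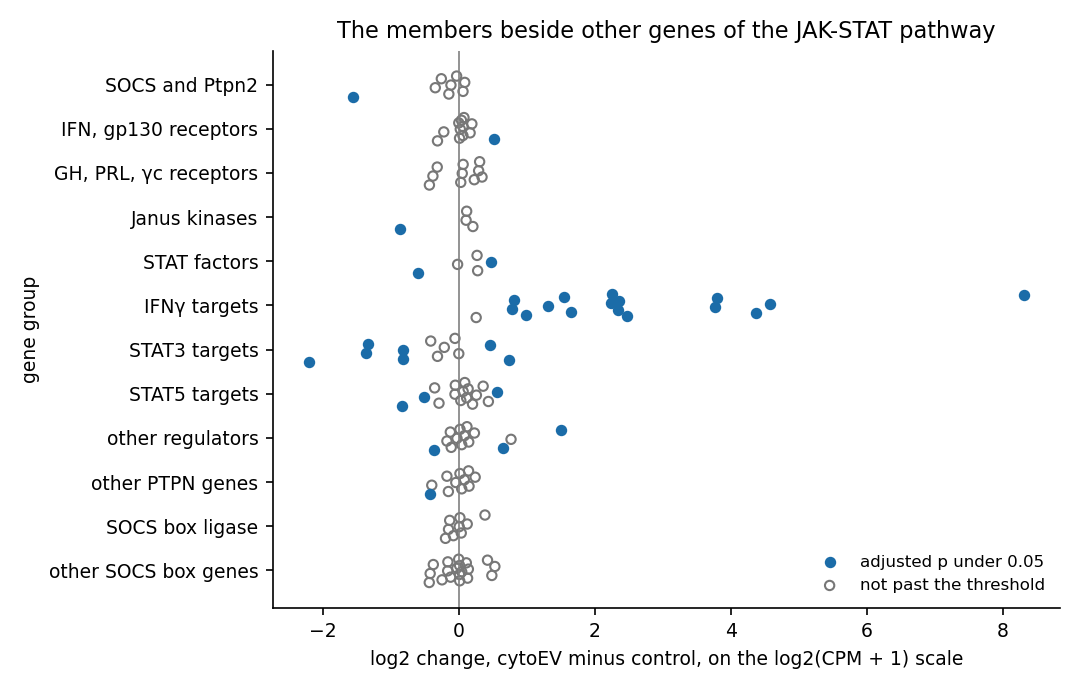
Log2 change (cytoEV minus control, log2(CPM + 1) scale) of each tested gene in the SOCS and Ptpn2 group and in 11 groups of related genes, filled where the limma adjusted p was under 0.05. The interferon gamma targets lie mostly to the right of 0 with a median of 2.25, while Socs3 at −1.57 is the filled point of its group.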

How the data were processed

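Sequencing covered 4 mRNA libraries of isolated mouse islets, 2 per group, prepared with a stranded kit, per the labels' protocols. The authors deposited CPM values per gene symbol, each column summing to 1000000 CPM. Per the submitters' processing notes, mm10 was the build, and edgeR 3.1.1, StringTie 2.1.3, TopHat2 2.0.6 and R 3.6.1 are listed without a role. The untreated samples were matched to the control columns on name and number alone. In each library 100% of the values above 0 were whole multiples of 1 read within 0.01 of a read, which gave the reads.

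Groups were compared in R 4.3.3 with limma 3.58.1 on log2(CPM + 1). The model had the group alone, which leaves 2 residual degrees of freedom, and eBayes with an intensity trend. P-values were adjusted by Benjamini-Hochberg over the 12780 genes tested. The fold changes understate those of low genes. The recovered reads were also tested with DESeq2 1.42.0 and with the quasi-likelihood test of edgeR 4.0.16 after TMM scaling. Other alternatives were scaling, pseudocount, filter, variance model, a replicate block and leaving out each library. The 3 count and log2 tests were tested on simulated data. Lists are described by counts and medians. The members and lists were chosen with earlier results of these data known. Named genes were all members, all Janus kinases and STATs, up to 4 called genes per direction and list by p (the first 2 where none was called), and the 3 nearest profiles of each called member. Some of these are not printed, and 1 listed gene was left out of the lists and is not reported here. Named outside the rule, after their values were seen, were Irf1, Cxcl9, Ido1, Ciita, Il6st, Junb, Ptpn1 and Cd3e. Coordinates, exon lengths and shared 50-base stretches came from GENCODE M21 (GRCm38, also called mm10), and promoters from RefSeq. Intervals on reads cover counting error only.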

Additional observations from a re-analysis of the deposited data

How the results depend on the processing

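Socs3 stayed lower and called under all 18 alternatives, with log2 changes from −1.68 to −1.27 and adjusted p from 1.81e-47 to 0.00781. No member was called higher under any of them. DESeq2 called 3 members lower in place of 1, and leaving out a library gave between 1 and 4. Small log2 changes turned sign when 1 library was left out. The range with each library left out in turn was −0.27 to 0.029 for Socs4 (reversed without control replicate 2), −0.066 to 0.23 for Socs6, −0.0028 to 0.21 for Jak1 and −0.015 to 0.24 for Jak2 (each reversed without control replicate 1). It was −0.11 to 0.042 for Cish (reversed without cytoEV replicate 1) and −0.043 to 8.49e-05 for Stat6 (reversed without cytoEV replicate 2). The Socs1 difference, 0.039 on the log2(CPM + 1) scale, was 0.20 with a pseudocount of 0.1 CPM. Over the named genes and all alternatives, 66 single results on 25 genes lost a call and 30 on 12 genes gained one. The cause was not tested.

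Over all genes, 404 were higher and 449 lower. The counts were 149 and 179 with no filter and 745 and 845 in DESeq2, and 252 genes were higher with a filter of 5 CPM. Leaving out a library gave 215 to 2408 higher and 249 to 2023 lower. The lone library is then assumed to vary like the other group, so the pair left intact sets the spread. The replicate numbers are not stated to pair the libraries. With a replicate block, 481 genes were higher and 512 lower, and the members' counts stayed at 1 lower and 0 higher. The block ended the calls of Dusp3, Ptpn13, Tnfaip3, Igf1r and Col3a1 (adjusted p = 0.135, 0.0637, 0.0668, 0.108 and 0.0509) and added that of Rab40b (0.0415), a gene of another SOCS box protein. Same-numbered libraries tended only weakly to deviate in opposite directions (correlation −0.22 over 12780 genes). A crossed pairing, chosen after seeing the data, called 1469 higher and 1434 lower, and 3 members lower. At this depth the members other than Socs1 had over 900 reads in every library. How much of their spread between libraries is counting error was not tested.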
